A study of Homo sapiens with 9 samples.

Results

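The 10 genes described here encode CHOP and other transcription regulators and effectors that cells induce under stress: DDIT3, ATF4, ATF3, ATF5, TRIB3, PPP1R15A, DDIT4, SESN2, CEBPB and CEBPG. They were taken from the table of 62703 genes by symbol, from a list chosen with earlier results of these data known, and each symbol had 1 row. All 10 were among the 13443 genes that averaged 1 TPM or more, a transcript abundance scaled by gene length and to the same total in each library, that entered the test. Polyadenylated RNA was sequenced from cells that the labels call HepG2, a line from a human liver carcinoma, as 9 libraries, 3 for each of 3 treatments. In 3 libraries the cells had 750 µM palmitic acid (PA), a saturated fatty acid, for 24 h, and then 20 µM curcumin (Cur), a turmeric polyphenol, together with 5 µM CuCl2 for 12 h. Another 3 libraries came from cells given the same palmitic acid and then 20 µM curcumin for 12 h. The last 3 had the 24 h of palmitic acid alone. All 9 libraries therefore carried palmitic acid, and the labels describe no cells without it, no vehicle and no 12 h more for the libraries of palmitic acid alone. Treatment and those added hours therefore cannot be told apart.

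These genes belong to the integrated stress response. In it, kinases that sense unfolded proteins, amino acid shortage, viral RNA or mitochondrial trouble phosphorylate the initiation factor eIF2, which slows translation in general but favours the mRNA of ATF4. The ATF4 protein, a basic leucine zipper (bZIP) activator, then raises transcription of DDIT3 (CHOP), ATF3, TRIB3, SESN2, DDIT4 and genes of amino acid supply, often as a dimer with a C/EBP protein. PPP1R15A encodes GADD34, a subunit that directs a phosphatase to eIF2 and so ends the response, while CHOP is known for its part in cell death after prolonged stress. In liver cells saturated fatty acids are known inducers of this response. Because ATF4 is controlled in translation, its mRNA level does not measure its protein.

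The promoter stretches that match response elements of this pathway are shown first, because matches to these elements differ among the genes described. They are matches of letters, and binding was not measured. CARE, the composite element bound by ATF4 with C/EBP partners, was searched as TGATGNAAN on both strands, where N is any base. CRE, the element of ATF and CREB dimers, was searched as TGACGTCA. Windows ran from 250 bases before to 50 bases after each RefSeq gene start on GRCh38.p14, and all 10 genes matched at least 1 of 35116 windows. Capitals mark the element, and each sequence is given on its gene's strand. The first 2 are the members with a CARE, on the plus strand of chr19:33374041-33374109 and chr1:212565186-212565254.
CEBPG CARE: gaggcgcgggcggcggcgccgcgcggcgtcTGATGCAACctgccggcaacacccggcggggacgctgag
ATF3 CARE: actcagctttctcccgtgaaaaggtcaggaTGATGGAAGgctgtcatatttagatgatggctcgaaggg
ASNS and CHAC1, known ATF4 targets in amino acid and glutathione metabolism, held a CARE at chr7:97872458-97872486 on the minus strand and chr15:40953251-40953279 on the plus strand. Both stretches lie before the RefSeq start but overlap an exon annotated in GENCODE, and in CHAC1 the element reads on the opposite strand of the gene.
ASNS CARE: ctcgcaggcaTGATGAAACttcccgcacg
CHAC1 CARE: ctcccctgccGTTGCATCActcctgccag
PPP1R15A was the member with a full CRE, at chr19:48872353-48872380 on the plus strand, and JUND, an AP-1 gene described further on, had one at chr19:18281785-18281852 on the minus strand.
PPP1R15A CRE: cctctcttcgTGACGTCAgcacgccggg
JUND CRE: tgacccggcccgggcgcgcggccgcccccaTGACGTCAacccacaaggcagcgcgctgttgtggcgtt
A gene was counted if any of its windows held the element, over the 10 members and over all 27305 genes with a window. The members had more windows per gene (19 for 10 members, 35116 for all genes), which gives them more places to match. By window, a CARE was in 2 of 19 member windows and 3.611% of all windows, and the full CRE in 1 of 19 and 1.848%. A CARE was present in 2 members and in 4.45% of all genes. The full CRE was present in 1 member and in 2.249% of genes. Its short core TGACG, which also lies inside the full CRE, was present in 4 members and in 28.423% of genes. The AP-1 element TGANTCA was found in DDIT3 and ATF5 and in 9.368% of genes, and the C/EBP element TTNNGNAA in 5 members and 41.813% of genes. CCAAT boxes were in 6 members and 39.722% of genes, and the antioxidant element core TGACNNNGC in 3 members (PPP1R15A, TRIB3 and CEBPB) and 16.056% of genes. The endoplasmic reticulum stress element ERSE (CCAAT, a fixed gap and CCACG) was in none and 0.092% of genes. Besides ASNS, CHAC1 and JUND, the genes PHGDH, TXNIP and BBC3, described further on, were searched. None of these had a match to CARE or the full CRE. Only exact matches inside these windows were counted, so a missing match does not show that a promoter lacks the element.

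The 5′ leaders of these mRNAs, where upstream start codons can lie, are described from the annotation alone. In GENCODE release 29 the principal transcript of ATF4 had a leader of 882 bases with 7 upstream ATG triplets, a number that 5.798% of 11142 tested genes with a measured leader reached or passed. TRIB3 and CEBPG had 3 upstream ATG triplets each, and DDIT3, ATF5 and PPP1R15A had 2 each. ATF3 and SESN2 had 1 each, and DDIT4 and CEBPB had 0. At least 1 such triplet was present in 8 of the 10 members and in 52.63% of those genes, and at least 2 in 6 members and 31.682% of genes. The median leader was 310.5 bases in the members and 199 bases in all those genes. Upstream reading frames of ATF4, ATF5, DDIT3 and PPP1R15A are known regulators of translation, which RNA levels do not show.

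Depth is unknown, since TPM does not keep it. A library had 13208 to 13737 genes at 1 TPM or more, and mitochondrial genes held 10.08% to 12.985% of the TPM. Of 20 hepatocyte markers, 20 had a mean under 1 TPM and 7, including ALB and TTR, were listed at 0 in all libraries. Their summed level was 1.03 to 1.92 TPM with curcumin and CuCl2, 0.97 to 2.61 TPM with curcumin, and 0.87 to 1.42 TPM with palmitic acid alone. Markers of fibroblasts were under 1 TPM for 8 of 10 genes (COL1A1 stood at 11.1 TPM), of leukocytes and Kupffer cells for 8 of 10 (CD68 at 7.58 TPM), and of endothelial cells for 9 of 9. The label HepG2 is therefore given as the labels have it, not as a cell identity shown by these markers. The library of palmitic acid alone numbered replicate 3 stood apart from replicates 1 and 2 of its group, with the lowest median-of-ratios size factor of all 9 libraries (0.915, against 1.12 and 1.0505) and the lowest mitochondrial share. Leaving it out was checked for the genes named, in each curcumin group against palmitic acid alone. Where a call changed, or a printed fold change moved by over 1.5 times, the value without it is also given. For members near 0 it stands in the closing section.

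All 10 genes were expressed in every library. By the mean over 9 libraries, on the length-scaled TPM unit, the order was ATF4 at 849 TPM, DDIT3 at 610 TPM, PPP1R15A at 321 TPM, DDIT4 at 247 TPM, TRIB3 at 243 TPM, ATF3 at 170 TPM, CEBPB at 119 TPM, ATF5 at 66.1 TPM, CEBPG at 38.2 TPM and SESN2 at 31.0 TPM. ATF4 lay at or above 98.7% of all genes tested and DDIT3 at or above 98.3%. ATF4 was above DDIT3, and DDIT3 above PPP1R15A, in each of the 9 libraries. DDIT4 and TRIB3 were not separated, since their ranges overlapped in each of the 3 groups and their order turned with curcumin. PPP1R15A and DDIT4 overlapped with curcumin and CuCl2, and TRIB3 and ATF3 overlapped with palmitic acid alone. The remaining neighbours in the order did not overlap within any group. The level of DDIT3 is uncertain to the extent that its gene, chr12:57516588-57521737 on GRCh38, shares 982 bases with MARS on the opposite strand, which had a mean of 310 TPM. The kit was stranded per the labels' protocols, but the strand setting of the counting is not given in the sources used here. Pseudogenes of ATF4 (ATF4P1 to ATF4P4) were listed at no more than 0.27 TPM in any library.

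**Figure D1:**
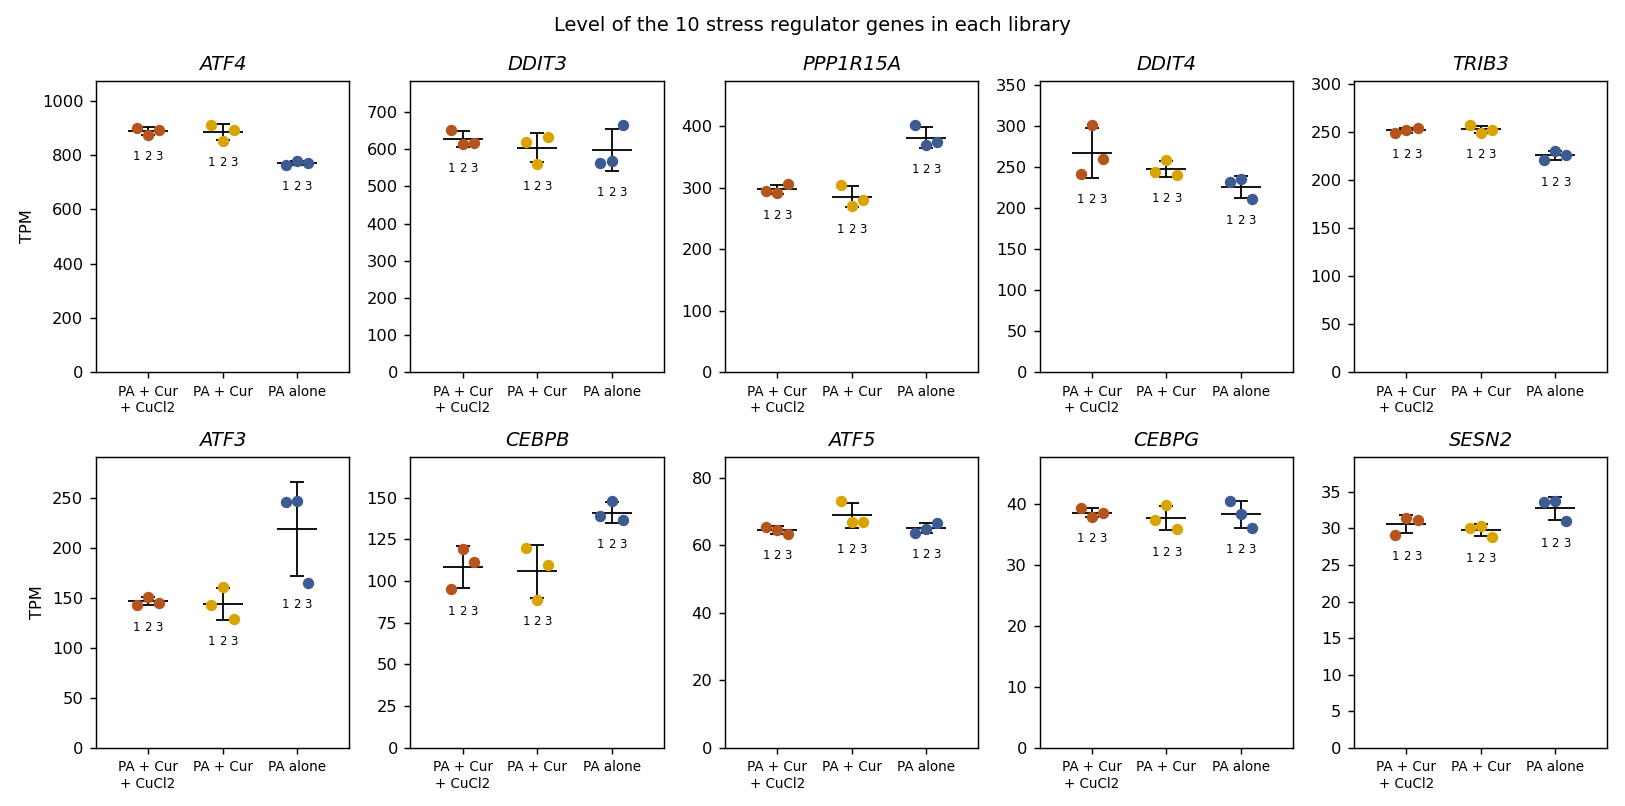
TPM of each of the 10 genes (y axis, from 0) in the 9 libraries, with points numbered by replicate, a horizontal line at the group mean and bars of 1 SD (n = 3). PPP1R15A, ATF3 and CEBPB lie lower in both curcumin groups than with palmitic acid alone, ATF4, TRIB3 and DDIT4 lie higher, and the DDIT3 groups overlap.

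Curcumin with CuCl2 and curcumin by itself were each set against palmitic acid alone to ask which of these transcripts differed after treatment. PPP1R15A, the gene of the eIF2 phosphatase subunit GADD34, fell in both, and it was the 1 of the 10 members past the threshold in each. ATF4, TRIB3 and DDIT4 were higher, and ATF3 and CEBPB lower, in every library of both curcumin groups than in any library of palmitic acid alone. These did not pass over all genes tested. DDIT3 itself, at 628 ± 21.5 TPM with curcumin and CuCl2, 604 ± 39.3 TPM with curcumin and 599 ± 57.0 TPM with palmitic acid alone (SD, n = 3 each), did not. Members therefore lay on both sides of 0, with 5 positive and 5 negative fold changes in either comparison. Both comparisons share the 3 libraries of palmitic acid alone.

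The test was limma on log2(TPM + 1) over all 13443 genes, two-sided, with Benjamini-Hochberg adjustment over all of them and a threshold of 0.05. With curcumin and CuCl2 against palmitic acid alone it called 1 of 10 members and 1.44% of all genes tested. With curcumin against palmitic acid alone it called 1 of 10 members and 1.96% of all genes. At an unadjusted p under 0.05, 6 of 10 members passed with curcumin and CuCl2 (13.5% of all genes) and 5 of 10 with curcumin (14.0% of all genes). The groups did not overlap for 6 of 10 members with curcumin and CuCl2, against 19.0% of all genes tested. For curcumin they did not overlap for 8 of 10 members, against 16.8% of all genes. The 8 include ATF5, with a lowest curcumin library of 66.71 TPM and a highest library of palmitic acid alone of 66.53 TPM. They also include SESN2, with a highest curcumin library of 30.33 TPM and a lowest library of palmitic acid alone of 30.97 TPM. Neither passed (limma adjusted p = 0.674 for ATF5 and 0.492 for SESN2). The median log2 fold change of the 10 members was 0.0003 with curcumin and CuCl2, beside -0.0274 over all genes, and -0.004 with curcumin, beside -0.0171 over all genes. Without replicate 3 of palmitic acid alone the median over all genes was -0.0979 with curcumin and CuCl2 and -0.088 with curcumin. The median of the members was not taken without that library.

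PPP1R15A (chr19:48872392-48876057) had 294.84, 290.71 and 305.06 TPM with curcumin and CuCl2, 304.75, 270.64 and 280.28 TPM with curcumin, and 401.02, 369.36 and 373.51 TPM with palmitic acid alone. Each of the 6 curcumin libraries was below each of the 3 libraries of palmitic acid alone. Its log2 fold change was -0.36 with curcumin and CuCl2 (SE 0.06, limma adjusted p = 0.0286) and -0.42 with curcumin (SE 0.06, limma adjusted p = 0.0159). These are changes of -22.0% (95% interval -29.4% to -13.9%) with curcumin and CuCl2 and -25.2% (-32.2% to -17.4%) with curcumin. In bulk RNA, fewer cells that express a gene and less RNA per cell cannot be told apart. The call held in 9 of 19 other settings with curcumin and CuCl2 and in 14 of 19 with curcumin, and the fold change stayed negative in all of them. Median-of-ratios scaling ended it (adjusted p = 0.153 with curcumin and CuCl2 and 0.0831 with curcumin), as did leaving out replicate 3 of curcumin (adjusted p = 0.0635 with curcumin and CuCl2 and 0.0864 with curcumin). The CuCl2 comparison also lost it when any 1 of its own libraries, or palmitic acid replicate 1 or 2, was left out, and the curcumin comparison when curcumin replicate 2 was, at adjusted p between 0.0574 and 0.146. Both comparisons also lost it in a fit of only the 2 groups compared and in a fit with no variance trend. With no filter on the mean level, the CuCl2 comparison lost it as well.

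ATF4 (chr22:39519695-39522685) had 901.77, 875.48 and 891.99 TPM with curcumin and CuCl2, 910.15, 853.95 and 893.16 TPM with curcumin, and 765.39, 777.73 and 772.8 TPM with palmitic acid alone. The lowest curcumin library was above the highest library of palmitic acid alone. The log2 fold change was 0.20 with curcumin and CuCl2 (SE 0.05, limma adjusted p = 0.0803) and 0.20 with curcumin (SE 0.05, limma adjusted p = 0.0837), which is 15.2% higher with curcumin and CuCl2 and 14.7% higher with curcumin, not past the threshold. With the mitochondrial share of each library as a covariate both passed (adjusted p = 0.0074 with curcumin and CuCl2 and 0.00874 with curcumin). This was the 1 of 19 other settings that called ATF4. The covariate raised calls over all genes, from 194 to 1436 with curcumin and CuCl2 and from 264 to 1505 with curcumin. Passing with it is therefore not particular to the genes for which it is named here and below.

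TRIB3 encodes a pseudokinase that binds ATF4, CHOP and the kinase AKT and is itself a target of ATF4. It had 248.84, 251.83 and 254.24 TPM with curcumin and CuCl2, 256.61, 249.14 and 251.68 TPM with curcumin, and 220.3, 230.4 and 225.54 TPM with palmitic acid alone. As for ATF4, the groups did not overlap. The log2 fold change was 0.16 in both comparisons (SE 0.05 each, limma adjusted p = 0.182 with curcumin and CuCl2 and 0.162 with curcumin), and with the mitochondrial covariate both passed (adjusted p = 0.0252 with curcumin and CuCl2 and 0.0231 with curcumin). Within each library the TRIB3 to ATF4 ratio moved little, at 0.283 ± 0.0061 with curcumin and CuCl2, 0.285 ± 0.0057 with curcumin and 0.292 ± 0.0042 with palmitic acid alone (SD, n = 3 each).

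ATF3 (chr1:212565334-212620777), a bZIP factor known mainly as a repressor, had 143.13, 150.69 and 145.02 TPM with curcumin and CuCl2, 142.29, 160.68 and 128.32 TPM with curcumin, and 245.26, 246.48 and 164.78 TPM with palmitic acid alone. The groups did not overlap, but replicate 3 of palmitic acid alone, at 164.78 TPM, lay close to the highest curcumin library, at 160.68 TPM. The log2 fold change was -0.55 with curcumin and CuCl2 (SE 0.15, limma adjusted p = 0.113) and -0.58 with curcumin (SE 0.15, limma adjusted p = 0.0897). Without that library ATF3 passed, at -0.75 with curcumin and CuCl2 (adjusted p = 0.00588) and -0.78 with curcumin (adjusted p = 0.00454). It also passed in both comparisons with median-of-ratios scaling (adjusted p = 0.0394 with curcumin and CuCl2 and 0.0273 with curcumin) and with the mitochondrial covariate. These were the only 3 of 19 other settings that called ATF3 in either comparison. In the rest its limma adjusted p reached 0.325 with curcumin and CuCl2 and 0.294 with curcumin. Leaving out replicate 3 of palmitic acid alone raised calls over all genes too, from 194 to 527 with curcumin and CuCl2 and from 264 to 619 with curcumin.

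DDIT3, the gene of CHOP, had 652.76, 614.48 and 616.6 TPM with curcumin and CuCl2, 619.17, 559.43 and 633.57 TPM with curcumin, and 563.44, 567.85 and 664.27 TPM with palmitic acid alone. The highest and the next-lowest of the 9 values both came from palmitic acid alone, and the groups overlapped. The log2 fold change was 0.07 with curcumin and CuCl2 (95% interval -0.10 to 0.25, limma adjusted p = 0.783) and 0.02 with curcumin (-0.16 to 0.19, adjusted p = 0.968). In percent the interval ran from -6.95% to 18.9% with curcumin and CuCl2 and from -10.6% to 14.2% with curcumin, which does not show the groups to be equal. Without replicate 3 of palmitic acid alone the change was 0.15 with curcumin and CuCl2 (adjusted p = 0.202) and 0.09 with curcumin (adjusted p = 0.407).

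CEBPB and CEBPG encode C/EBP beta and C/EBP gamma, dimer partners of ATF4 and CHOP, and the groups overlapped for CEBPG but not for CEBPB. CEBPB (chr20:50190734-50192689) had 95.04, 119.41 and 111.26 TPM with curcumin and CuCl2, 119.88, 88.67 and 109.44 TPM with curcumin, and 139.02, 148.01 and 136.48 TPM with palmitic acid alone. The CEBPB log2 fold change was -0.38 with curcumin and CuCl2 (SE 0.12, limma adjusted p = 0.172) and -0.42 with curcumin (SE 0.12, limma adjusted p = 0.125). CEBPG, whose promoter holds a CARE, had 37.94 to 39.43 TPM with curcumin and CuCl2, 35.92 to 39.84 TPM with curcumin and 36.12 to 40.54 TPM with palmitic acid alone. The 3 groups overlapped, with log2 fold changes of 0.01 (95% interval -0.16 to 0.18) for curcumin with CuCl2 and -0.02 (-0.19 to 0.15) for curcumin. The CEBPB to CEBPG ratio within a library was 2.81 ± 0.374 with curcumin and CuCl2, 2.83 ± 0.527 with curcumin and 3.69 ± 0.228 with palmitic acid alone (SD, n = 3 each).

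ATF5, a bZIP factor linked to the mitochondrial form of the response, had 63.39 to 65.49 TPM with curcumin and CuCl2, 66.71 to 73.01 TPM with curcumin and 63.69 to 66.53 TPM with palmitic acid alone. The change of ATF5 on the log2 scale was -0.01 (95% interval -0.16 to 0.13) with curcumin and CuCl2 and 0.08 (-0.07 to 0.23) with curcumin. The gene overlaps NUP62 on the opposite strand by 1062 bases, and NUP62 had a mean of 57.3 TPM.

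DDIT4 and SESN2, both inhibitors of the growth kinase complex mTORC1, had fold changes of opposite sign, and neither passed. DDIT4 had 242.03, 300.99 and 259.52 TPM with curcumin and CuCl2, 244.6, 259.34 and 240.03 TPM with curcumin, and 231.87, 235.97 and 211.08 TPM with palmitic acid alone. Every curcumin library was above every library of palmitic acid alone, and the log2 fold changes were 0.24 with curcumin and CuCl2 (SE 0.09, limma adjusted p = 0.249) and 0.13 with curcumin (SE 0.09, adjusted p = 0.572). The DDIT4 change with curcumin and CuCl2 was 0.15 without replicate 2 of that group and passed with the mitochondrial covariate (0.27, adjusted p = 0.0299), and that with curcumin was 0.08 without replicate 3 of palmitic acid alone. SESN2, which senses leucine, had 29.14 to 31.4 TPM with curcumin and CuCl2, 28.89 to 30.33 TPM with curcumin and 30.97 to 33.74 TPM with palmitic acid alone. For SESN2 the log2 fold change was -0.10 with curcumin and CuCl2 (adjusted p = 0.652) and -0.13 with curcumin (adjusted p = 0.492).

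**Figure D2:**
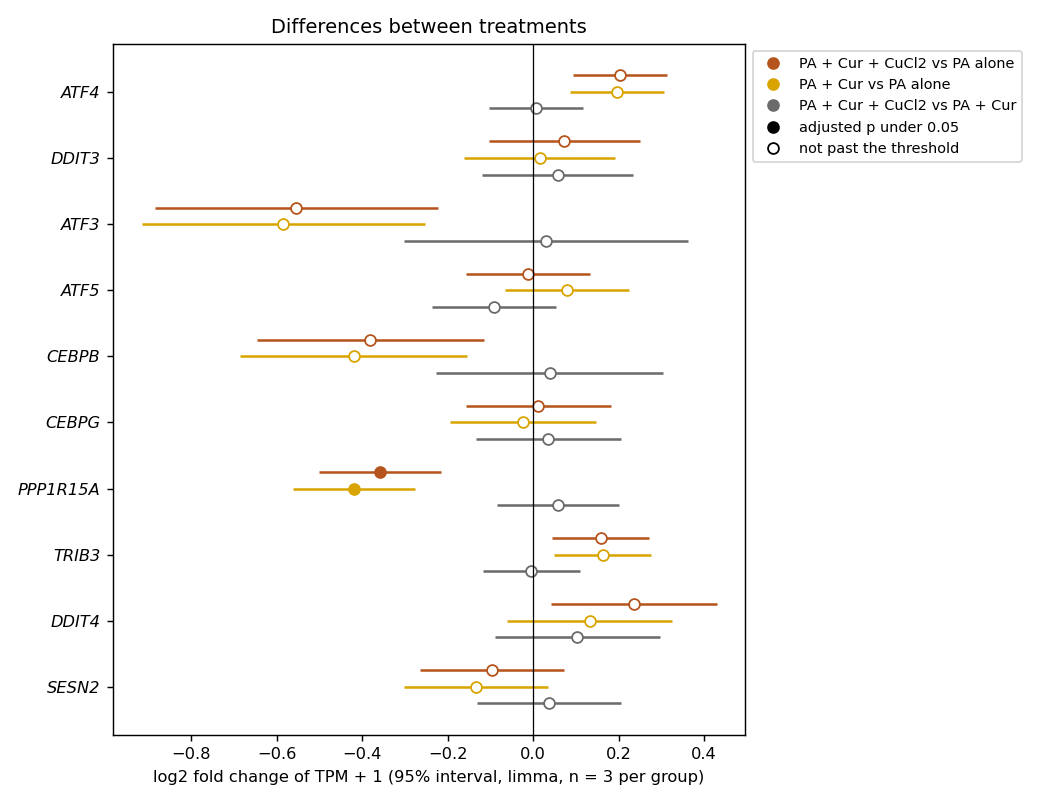
Log2 fold change of TPM + 1 (x axis) of the 10 genes with 95% intervals from limma (n = 3 libraries per group), for curcumin with CuCl2 against palmitic acid alone, curcumin against palmitic acid alone, and curcumin with CuCl2 against curcumin; filled points passed an adjusted p under 0.05. PPP1R15A is filled in both comparisons with palmitic acid alone, at -0.36 with curcumin and CuCl2 and -0.42 with curcumin, and the grey intervals of the comparison for CuCl2 all include 0.

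Curcumin with CuCl2 was compared with curcumin to ask what copper added. None of the 10 members passed, and 0.0% of all genes tested did, although 215 genes (1.6%) had an unadjusted p under 0.05, none of them a member. The log2 differences of the members ran from -0.09 for ATF5 to 0.10 for DDIT4. All 3 libraries of ATF5 with curcumin and CuCl2 (65.49, 64.49 and 63.39 TPM) were below the 3 with curcumin (73.01, 66.73 and 66.71 TPM), and the other 9 members overlapped, against 6.24% of all genes whose groups did not overlap. The narrowest intervals were those of ATF4 (-0.10 to 0.12 on the log2 scale) and TRIB3 (-0.12 to 0.11), and the widest was that of ATF3 (-0.30 to 0.36). For PPP1R15A the interval was -0.08 to 0.20, and for DDIT3 -0.12 to 0.23. A p that misses the threshold does not show that the treatments act alike.

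Since adding CuCl2 left no call, the mean of both curcumin groups was also set against palmitic acid alone in the same model, a contrast chosen after the data had been seen. It called 3 of 10 members and 3.6% of all genes tested. PPP1R15A fell (-0.39 on the log2 scale, SE 0.06, limma adjusted p = 0.00713) and ATF3 fell (-0.57, SE 0.13, adjusted p = 0.0439). ATF4 rose (0.20, SE 0.04, adjusted p = 0.0347). CEBPB (-0.40, adjusted p = 0.0699) and TRIB3 (0.16, adjusted p = 0.0857) did not pass. The calls of ATF4 and ATF3 held in 7 of 18 other settings each, and that of PPP1R15A in 17 of 18. The groups did not overlap for 6 of 10 members, against 11.4% of all genes.

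Ratios of 2 members within a library do not depend on the total to which TPM is scaled. ATF4 stood at 3.06, 3.01 and 2.92 times PPP1R15A with curcumin and CuCl2, 2.99, 3.16 and 3.19 times with curcumin, and 1.91, 2.11 and 2.07 times with palmitic acid alone. The means were 2.998 ± 0.0683 with curcumin and CuCl2, 3.11 ± 0.108 with curcumin and 2.03 ± 0.105 with palmitic acid alone (SD, n = 3 each). That gap follows from the levels already given, ATF4 higher and PPP1R15A lower with curcumin, and is not separate evidence. The ratios were not planned, and no share over other pairs of genes was taken. The DDIT3 to ATF4 ratio was 0.706 ± 0.0166 with curcumin and CuCl2, 0.682 ± 0.0271 with curcumin and 0.775 ± 0.0731 with palmitic acid alone. The ATF3 to ATF4 ratio was 0.165 ± 0.0069 with curcumin and CuCl2, 0.163 ± 0.0229 with curcumin and 0.284 ± 0.0609 with palmitic acid alone. A ratio shows unequal change and does not say which of the 2 transcripts changed. PPP1R15B, the constitutive counterpart of PPP1R15A, had 62.9 ± 3.11 TPM with curcumin and CuCl2, 64.1 ± 11.3 TPM with curcumin and 69.1 ± 18.1 TPM with palmitic acid alone. In palmitic acid alone its libraries stood at 81.95, 76.86 and 48.4 TPM, and without the last of these the log2 fold change was -0.33 with curcumin and CuCl2 (adjusted p = 0.157) and -0.32 with curcumin (adjusted p = 0.178), where all libraries gave -0.10 with curcumin and CuCl2 and -0.08 with curcumin.

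The members differed in how closely they followed the composition of the library, which is given as a description over the same 9 libraries with no test. The DDIT3 level on the log2 scale correlated with the median-of-ratios size factor at r = -0.94, and 5.50% of all genes tested had a correlation of that size or larger. With the mitochondrial share r was -0.92. After the group means were removed, r with the size factor was -0.96 for DDIT3, 0.93 for ATF3, 0.84 for SESN2, 0.81 for CEBPG, 0.72 for DDIT4, -0.55 for ATF4, -0.48 for ATF5, -0.31 for TRIB3, -0.07 for CEBPB and 0.06 for PPP1R15A. Deviations of DDIT3 and ATF3 from their group means correlated at -0.95. Over the 9 libraries without that step r was 0.68 for ATF3, a size that 40.6% of all genes tested had or passed, -0.35 for ATF4 and 0.22 for PPP1R15A. The part of library composition in these values was not tested.

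**Figure D3:**
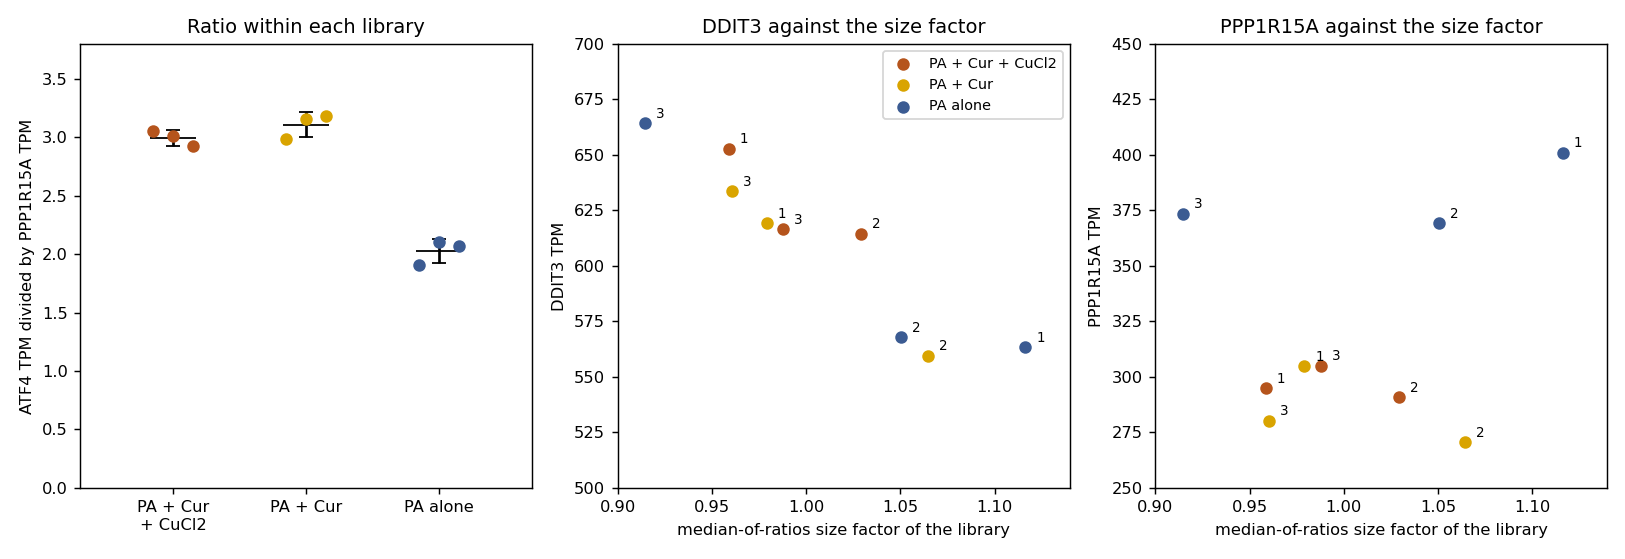
Left, ATF4 TPM divided by PPP1R15A TPM in each library with the group mean and 1 SD (n = 3); centre and right, DDIT3 and PPP1R15A TPM (y axes do not start at 0) against the median-of-ratios size factor of each library (x axis), numbered by replicate. The ratio is near 3 in both curcumin groups and near 2.03 with palmitic acid alone; DDIT3 declines along the size factor (r = -0.94) with all groups mixed, while PPP1R15A splits into palmitic acid alone above and the curcumin groups below.

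The genes whose pattern was most like that of DDIT3 were sought among 8799 genes with a plain symbol and a mean of at least 5 TPM, by Pearson's r of log2(TPM + 1) over the 9 libraries. The 5 highest were FTH1 (0.98), RPS19 (0.98), AK1 (0.97), NDUFA7 (0.97) and RPS28 (0.97). The 3 lowest were S100PBP (-0.99), NUSAP1 (-0.99) and ZSCAN12 (-0.998). In all, 291 of those genes had r over 0.8 with DDIT3 and 2246 had r under -0.8, and all points share library and depth. Among pairs of members, ATF4 and TRIB3 had r = 0.97, ATF3 and SESN2 0.92, and TRIB3 and PPP1R15A -0.92 over the same 9 libraries. For deviations from the group means these were 0.52 for ATF4 and TRIB3, 0.83 for ATF3 and SESN2, and 0.07 for TRIB3 and PPP1R15A.

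Other genes of the pathway were read from 8 lists with 160 genes in the table, of which 147 passed the filter. Of the 147, 3 rose and 3 fell with curcumin and CuCl2, where 0.543% of all genes tested rose and 0.9% fell. With curcumin 3 rose and 6 fell, where 0.759% of all genes rose and 1.21% fell. The median log2 fold change of the listed genes was -0.02 with curcumin and CuCl2 and -0.01 with curcumin, and over all genes it was -0.03 with curcumin and CuCl2 and -0.02 with curcumin. For both curcumin groups averaged, 5 of the 147 rose and 7 fell, where 1.47% of all genes rose and 2.13% fell. That contrast added RRAGA, a GTPase that activates mTORC1 (0.31 on the log2 scale, limma adjusted p = 0.0416), PSAT1 (0.49, adjusted p = 0.0329) and CEBPD (-0.46, adjusted p = 0.0309) to the genes described below.

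Of the sensors and initiation factors upstream of ATF4, 1 gene passed the test. None of 21 such genes passed with curcumin and CuCl2 (median -0.01), and 1 fell with curcumin (median 0.00). That gene was EIF2B2, a subunit of the exchange factor eIF2B, with 75.5 ± 3.64 TPM with curcumin and CuCl2, 72.8 ± 3.65 TPM with curcumin and 92.4 ± 1.43 TPM with palmitic acid alone. Its log2 fold change was -0.29 with curcumin and CuCl2 (limma adjusted p = 0.0754) and -0.34 with curcumin (adjusted p = 0.0389), and the call held in 6 of 19 other settings. EIF2AK3, the gene of the kinase PERK, had 19.6 ± 1.56 TPM with curcumin and CuCl2, 19.8 ± 1.297 TPM with curcumin and 21.5 ± 5.57 TPM with palmitic acid alone. Its log2 fold change was -0.09 with curcumin and CuCl2 and -0.08 with curcumin, and without replicate 3 of palmitic acid alone -0.31 with curcumin and CuCl2 (adjusted p = 0.115) and -0.30 with curcumin (adjusted p = 0.127).

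Among 29 tested bZIP partners and relatives, JUND fell in both comparisons and no other gene passed. JUND, an AP-1 subunit, had 129.3, 140.6 and 121.74 TPM with curcumin and CuCl2, 139.46, 118.81 and 132.23 TPM with curcumin, and 244.41, 201.23 and 225.19 TPM with palmitic acid alone. For JUND the log2 fold change was -0.77 in both (SE 0.09 each, limma adjusted p = 0.00594 with curcumin and CuCl2 and 0.00481 with curcumin), and it was called in all 19 other settings of each. The list had a median of -0.14 with 23 of 29 genes negative for curcumin and CuCl2, and a median of -0.11 with 22 negative for curcumin. CEBPD, the C/EBP delta gene, had 58.3 ± 5.03 TPM with curcumin and CuCl2, 57.7 ± 8.18 TPM with curcumin and 79.8 ± 1.46 TPM with palmitic acid alone (adjusted p = 0.0820 with curcumin and CuCl2 and 0.0680 with curcumin).

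Of 23 tested ATF4 targets in amino acid supply, 2 rose in both comparisons and none fell (median 0.07 with curcumin and CuCl2 and 0.03 with curcumin). ASNS, which makes asparagine, had 195.14, 189.15 and 183.98 TPM with curcumin and CuCl2, 186.64, 207.54 and 178.24 TPM with curcumin, and 135.04, 135.23 and 124.04 TPM with palmitic acid alone. Its log2 fold change was 0.52 with curcumin and CuCl2 (SE 0.07, limma adjusted p = 0.00975) and 0.53 with curcumin (SE 0.07, adjusted p = 0.00814). ASNS was called in 16 of 19 other settings with curcumin and CuCl2 and in 18 of 19 with curcumin. The CuCl2 comparison lost the call when any 1 of its own libraries was left out. PHGDH, the first enzyme of serine synthesis, stood at 281 ± 8.72 TPM with curcumin and CuCl2, 288 ± 8.58 TPM with curcumin and 203 ± 6.66 TPM with palmitic acid alone, and was called in all 19 other settings of both comparisons. PSAT1, the next enzyme of that route, missed the threshold, at 0.46 with curcumin and CuCl2 (adjusted p = 0.0936) and 0.51 with curcumin (adjusted p = 0.0663). It passed in 3 of 19 other settings with curcumin and CuCl2 and in 4 of 19 with curcumin. The mitochondrial covariate, median-of-ratios scaling and the replicate block were among these in both comparisons. SLC7A11, the cystine carrier gene, overlapped between groups, at 0.27 with curcumin and CuCl2 (adjusted p = 0.670) and 0.31 with curcumin (adjusted p = 0.607). In palmitic acid alone its libraries stood at 33.69, 35.2 and 19.66 TPM, and without the last of these the change was 0.01 with curcumin and CuCl2 and 0.05 with curcumin. With the mitochondrial covariate SLC7A11 passed in both (limma adjusted p = 0.0137 with curcumin and CuCl2 and 0.00789 with curcumin). Of 14 tRNA synthetase targets none passed, with a median of 0.10 and 11 positive with curcumin and CuCl2, and a median of 0.09 and 12 positive with curcumin.

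Of 17 tested genes of the stress output list, 1 rose and 1 fell with curcumin and CuCl2 (median -0.09), and 1 rose and 3 fell with curcumin (median -0.08). CHAC1, which degrades glutathione and holds the CARE shown above, had 56.3 ± 0.343 TPM with curcumin and CuCl2, 55.6 ± 1.11 TPM with curcumin and 39.2 ± 1.77 TPM with palmitic acid alone. Its log2 fold change was 0.51 with curcumin and CuCl2 (limma adjusted p = 0.00705) and 0.49 with curcumin (adjusted p = 0.00755). CHAC1 was called in 18 of 19 other settings with curcumin and CuCl2 and in 17 of 19 with curcumin. TXNIP, known as an inhibitor of thioredoxin and of glucose uptake, fell to 20.3 ± 1.43 TPM with curcumin and CuCl2 and 19.2 ± 2.98 TPM with curcumin, against 44.1 ± 8.34 TPM with palmitic acid alone. The log2 fold change was -1.07 with curcumin and CuCl2 (adjusted p = 0.0113) and -1.15 with curcumin (adjusted p = 0.00744). TXNIP was called in 14 of 19 other settings with curcumin and CuCl2 and in 18 of 19 with curcumin. The CuCl2 comparison lost the call when any 1 of its own libraries, or palmitic acid replicate 1 or 2, was left out. INHBE, a secreted inhibin subunit, and STC2, a secreted glycoprotein, fell with curcumin, with log2 fold changes of -0.89 (adjusted p = 0.0423) for INHBE and -0.45 (adjusted p = 0.0498) for STC2, calls that held in 6 of 19 other settings each. INHBE with curcumin and CuCl2 (-0.72, adjusted p = 0.0903) passed when replicate 3 of palmitic acid alone was left out (-0.91, adjusted p = 0.0160). GDF15, a secreted stress cytokine, had 375 ± 15.8 TPM with curcumin and CuCl2, 365 ± 44.9 TPM with curcumin and 458 ± 60.9 TPM with palmitic acid alone and did not pass (adjusted p = 0.301 with curcumin and CuCl2 and 0.217 with curcumin).

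CHOP-linked cell death genes showed 1 call in 15 in each comparison. BBC3, which encodes the death-promoting protein PUMA, had 6.04 ± 0.454 TPM with curcumin and CuCl2, 6.65 ± 0.707 TPM with curcumin and 10.7 ± 0.788 TPM with palmitic acid alone. The log2 fold change was -0.73 with curcumin and CuCl2 (limma adjusted p = 0.0189) and -0.61 with curcumin (adjusted p = 0.0359). The call held in 13 of 19 other settings with curcumin and CuCl2 and in 8 of 19 with curcumin. PMAIP1, TNFRSF10B and BCL2L11, other death genes linked to CHOP, did not pass, with log2 fold changes of -0.04, -0.02 and 0.30 with curcumin and CuCl2 and 0.01, -0.02 and 0.33 with curcumin. Without replicate 3 of palmitic acid alone PMAIP1 stood at -0.26 with curcumin and CuCl2 and -0.21 with curcumin, and TNFRSF10B at -0.19 in both, none of them past the threshold. In these comparisons none of 24 mTORC1 control genes passed (median 0.02 with curcumin and CuCl2 and -0.02 with curcumin), and none of 5 genes of the TRIB family and AKT did (median -0.01 with curcumin and CuCl2 and -0.09 with curcumin). HSPA5, the main chaperone of the endoplasmic reticulum, had 1401 ± 25.3 TPM with curcumin and CuCl2, 1337 ± 105 TPM with curcumin and 1692 ± 202 TPM with palmitic acid alone (adjusted p = 0.217 with curcumin and CuCl2 and 0.114 with curcumin). Without replicate 3 of palmitic acid alone HSPA5 passed, at -0.37 with curcumin and CuCl2 (adjusted p = 0.0259) and -0.44 with curcumin (adjusted p = 0.0131), and it also passed in both with the mitochondrial covariate (adjusted p = 0.00447 with curcumin and CuCl2 and 0.00167 with curcumin). For scale, HMOX1, the heme oxygenase gene, had a log2 fold change of 2.50 with curcumin and CuCl2 and 2.60 with curcumin.

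**Figure D4:**
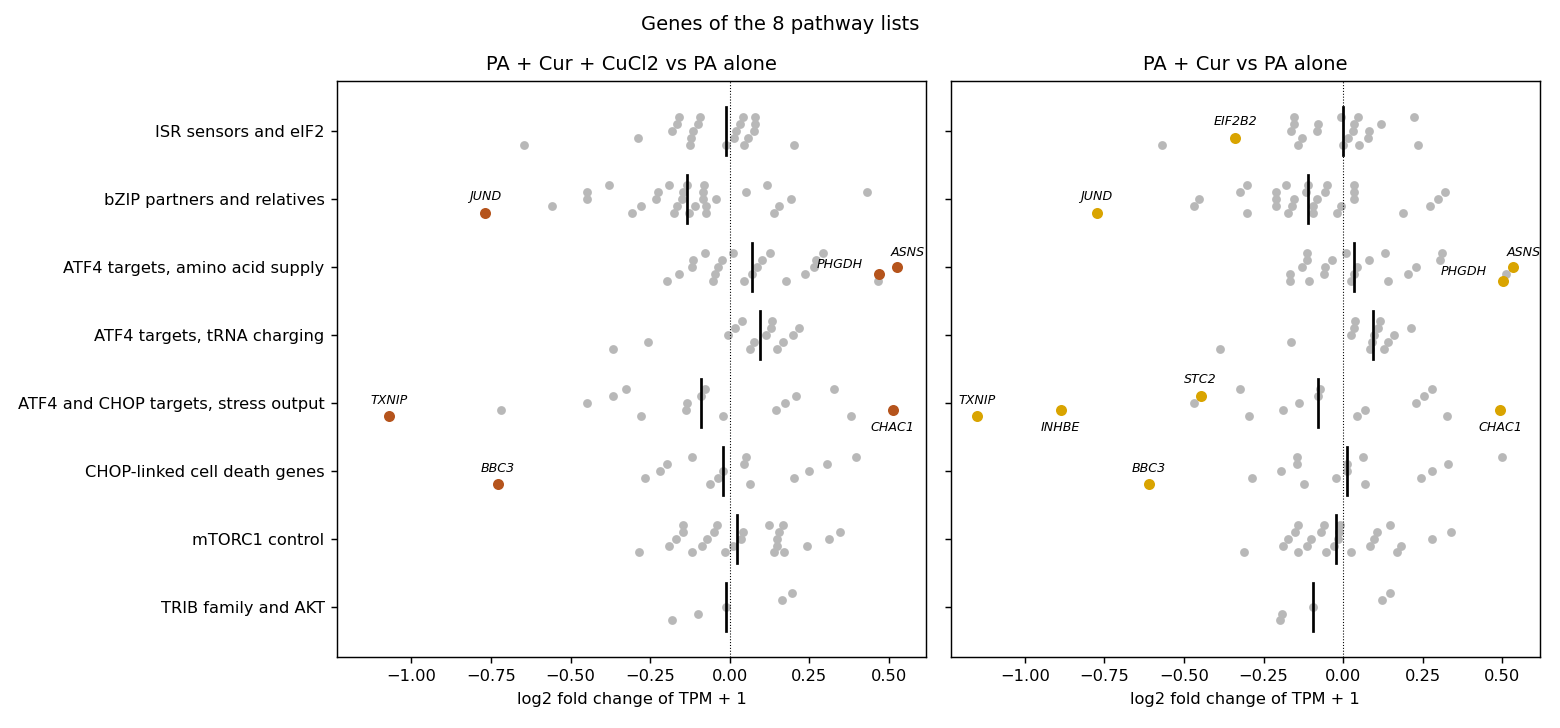
Log2 fold change of TPM + 1 (x axis) of each tested gene of the 8 pathway lists, for curcumin with CuCl2 (left) and curcumin (right) against palmitic acid alone; coloured points passed an adjusted p under 0.05 (limma, n = 3 per group) and black lines are list medians. JUND, TXNIP and BBC3 lie to the left and ASNS, PHGDH and CHAC1 to the right in both panels, while the list medians stay between -0.14 and 0.10.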

How the data were processed

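The values are TPM, as deposited by the authors in 1 table with 2 decimals, a unit in which every column is scaled to the same total. The submitters' processing notes name HISAT2 2.1.0, RSEM 1.3.3 and GRCh38.p13 without roles, and the annotation release is not given in the sources used here. TPM keeps no depth, so no count model and no counting interval was used, and the depth behind each value is unknown. Columns were matched to samples by name. Separate cultures are not stated in the labels, so p-values reflect only how these libraries vary, and that variation may be technical.

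The scale was log2(TPM + 1), one that understates changes of low genes. Genes averaging at least 1 TPM were fitted with limma 3.58.1 (R 4.3.3), all 9 libraries in 1 model with a variance trend. The fit was run on simulated data in which genes varied independently of each other. That check holds no shift shared across a library, so it does not cover such shifts. The mean of both curcumin groups against palmitic acid alone was added after the data were seen. The 19 other settings were a mean of at least 5 TPM and no filter, pseudocounts of 0.1 and 5, mitochondrial genes left out, median-of-ratios scaling, a fit without the group not compared, no variance trend, a replicate block, mitochondrial share as a covariate, and each library left out.

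The 10 members, the 8 pathway lists and the 4 marker lists were chosen with earlier results of these data known. Text names all members, up to 4 genes past the threshold with the largest change per list and comparison, 7 genes fixed by name (ASNS, CHAC1, PSAT1, GDF15, SLC7A11, HSPA5 and HMOX1), and the genes most and least like DDIT3. EIF2AK3, PPP1R15B, PMAIP1, TNFRSF10B, BCL2L11 and genes that overlap a member were named beside them after their values were seen. Coordinates come from GENCODE release 29 (GRCh38), and promoter sequences are from RefSeq (GRCh38.p14). A planned comparison of the proteins was not made here. Plots were made in Python 3.11.15 with matplotlib 3.10.9.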

Additional observations from a re-analysis of the deposited data

How the results depend on the processing

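Of the members, PPP1R15A kept its direction in both comparisons with palmitic acid alone under all 19 other settings and lost its call in 5 (curcumin) and 10 (curcumin with CuCl2), as given beside it. The counts of genes called moved more. With curcumin against palmitic acid alone, 264 genes were called, 104 with no filter, 35 with only the 2 groups, 130 with no variance trend, 1505 with the mitochondrial share as a covariate, and 54 to 619 with 1 library left out. Members called were 1, but 0 with only the 2 groups or no variance trend, 4 with the covariate, and 0 to 2 with 1 library left out; pathway genes called were 9, but 5 with no filter, 2 with only the 2 groups, 38 with the covariate and 4 to 15 with 1 library left out. With curcumin and CuCl2 against palmitic acid alone, 194 genes were called, 114 with no filter, 65 with only the 2 groups, 1436 with the covariate, and 46 to 527 with 1 library left out. Members called were 1, but 0 with no filter, only the 2 groups or no variance trend, 5 with the covariate, and 0 to 2 with 1 library left out; pathway genes called were 6, but 11 with median-of-ratios scaling, 39 with the covariate and 2 to 13 with 1 library left out. The upper ends, of pathway genes too, came from leaving out replicate 3 of palmitic acid alone. Between the curcumin groups 0 genes were called, but 1 with a pseudocount of 5, 3 with no filter, 3 with only the 2 groups and 0 to 4 with 1 library left out, none of them a member or pathway gene. For both curcumin groups averaged, 484 genes were called, 258 with no filter, 2186 with the covariate and 154 to 1080 with 1 library left out. Members were 3, but 1 with no filter, median-of-ratios scaling or no variance trend, 6 with the covariate and 1 to 3 with 1 library left out; pathway genes were 12, but 7 with no filter, 7 with no variance trend, 44 with the covariate and 6 to 22 with 1 library left out. This contrast uses all groups, so a fit of only the 2 groups was not run for it. The cause of these shifts was not tested.

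With the replicate number as a block, 177 and 147 genes were called for curcumin and for curcumin with CuCl2 against palmitic acid alone, 0 between the curcumin groups, and PPP1R15A had adjusted p = 0.0236 with curcumin and 0.0405 with curcumin and CuCl2. Same-numbered libraries deviated together at r = -0.27 to 0.25, over 0.1 in 2 of 9 pairs, and 3 of 9 libraries correlated best with their own number. These values do not show a pairing by number. With 3 libraries a group, and replicate 3 of palmitic acid alone standing apart, they cannot exclude one either.

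Members with a change near 0 turned sign, none of them called. With curcumin, DDIT3 became -0.037 with the covariate and ranged from -0.026 to 0.0926 with 1 library left out, and CEBPG became 0.0088 with median-of-ratios scaling and 0.0035 with the covariate, and ranged from -0.0647 to 0.0165 with 1 library left out. With curcumin and CuCl2, ATF5 became 0.0335 with median-of-ratios scaling and ranged from -0.0261 to 0.0049 with 1 library left out, and CEBPG ranged from -0.0288 to 0.0523. Between the curcumin groups, ATF4 ranged from -0.0192 to 0.0267, ATF3 from -0.0478 to 0.1133, CEBPB from -0.0829 to 0.1325 and TRIB3 from -0.0142 to 0.007, and TRIB3 became 0.0081 with median-of-ratios scaling. For the averaged contrast, DDIT3 became -0.0044 with the covariate, and CEBPG 0.0331 with median-of-ratios scaling and 0.0194 with the covariate (-0.0467 to 0.0344 with 1 library left out). With no depth in TPM, low genes cannot be weighted by their counts, and 3 libraries a group limit what the test can call.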
